A study of Mus musculus with 43 samples.

Results

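Lungs of mice that had 15 weeks of house dust mite (HDM) and an anti-IL-33 antibody were set against lungs of mice given HDM for 4 weeks and no antibody. The 15 antibody libraries and the 10 4-week libraries were taken by the group named in their sample titles and are 25 of the 43 libraries in the series. The contrast asks, for each gene, whether its level under antibody lay below, at or above the 4-week level. HDM is an airway allergen extract. The other groups were 15 weeks of HDM without antibody (7 libraries), 15 weeks with an isotype control antibody (4 libraries) and saline (7 libraries).

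Every mouse, controls included, was Il33hu/hu, a humanised Il33 genotype, on a C57BL/6NTac (75%) and 129S6SvEvTac (25%) background. No source used here says what the reads of the humanised gene were counted under, nor gives the ages of the mice or the dose and timing of the antibody. The antibody group differed from the 4-week group by the antibody and also by 11 more weeks of HDM and any difference in age, and these cannot be told apart in this contrast. The labels do not say that libraries are separate animals, so the p-values measure the spread between libraries.

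IL-33 is an alarmin, a cytokine of the IL-1 family that barrier and stromal cells release when damaged. It acts through ST2, the product of Il1rl1, on group 2 innate lymphoid cells, Th2 cells, mast cells and other cells, which make IL-5 and IL-13. IL-5 sustains eosinophils, and IL-13 acts on epithelium, macrophages and stroma through STAT6, where it induces mucus genes, alternatively activated macrophage genes and eosinophil-attracting chemokines.

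The upstream sequences of 5 genes that lead the changes below are given first: Il13 and Il5, the type 2 cytokine genes, Retnla, a macrophage gene induced by IL-4 and IL-13, and Btnl4 and Btnl6, the pair with the largest rises. Each is the 250 bases before the transcription start in RefSeq (GRCm38.p6), 5′ to 3′ on the gene's strand, at chr11:53634703-53634952 (minus strand), chr11:53720544-53720793 (plus), chr16:48842359-48842608 (plus), chr17:34475938-34476187 (minus) and chr17:34517353-34517602 (minus). Capitals mark a match to TTC and GAA separated by any 4 bases, the spacing that STAT6 prefers, searched on both strands. The RefSeq start used for Btnl4 and Btnl6 lies inside the span of each gene.
Il13: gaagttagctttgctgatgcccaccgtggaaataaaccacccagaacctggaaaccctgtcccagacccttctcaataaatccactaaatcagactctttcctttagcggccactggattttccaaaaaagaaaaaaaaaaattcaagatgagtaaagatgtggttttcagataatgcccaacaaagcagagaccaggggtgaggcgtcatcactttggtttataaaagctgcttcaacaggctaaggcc
Il5: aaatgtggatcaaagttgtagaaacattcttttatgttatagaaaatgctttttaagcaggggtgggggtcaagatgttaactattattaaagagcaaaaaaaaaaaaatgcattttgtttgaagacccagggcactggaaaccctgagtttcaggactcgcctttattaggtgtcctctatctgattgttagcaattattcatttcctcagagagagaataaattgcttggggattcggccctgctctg
Retnla: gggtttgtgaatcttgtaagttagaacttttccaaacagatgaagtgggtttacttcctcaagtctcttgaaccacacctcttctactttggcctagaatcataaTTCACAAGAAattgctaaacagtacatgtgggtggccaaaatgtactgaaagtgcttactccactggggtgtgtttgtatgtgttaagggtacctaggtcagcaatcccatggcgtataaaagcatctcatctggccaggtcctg
Btnl4: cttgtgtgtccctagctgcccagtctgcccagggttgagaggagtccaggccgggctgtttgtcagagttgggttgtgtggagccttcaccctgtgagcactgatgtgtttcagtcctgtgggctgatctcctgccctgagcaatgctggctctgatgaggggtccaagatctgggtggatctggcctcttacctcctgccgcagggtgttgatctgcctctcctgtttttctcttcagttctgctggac
Btnl6: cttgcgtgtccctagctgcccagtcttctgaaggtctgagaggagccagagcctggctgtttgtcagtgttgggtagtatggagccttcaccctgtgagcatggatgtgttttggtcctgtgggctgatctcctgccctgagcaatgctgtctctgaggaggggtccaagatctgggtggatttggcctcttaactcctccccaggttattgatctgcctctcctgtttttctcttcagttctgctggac
Retnla held a match, beginning 145 bases before its start. The other 4 and the Chil4 promoter, which was searched too, held none in this window. The motif occurred in 986 of 18148 mouse promoters of that length (5.43%). GGG and CC separated by any 5 bases, a motif of the NF-kB type, was in none of the 6 and in 9295 of the 18148 (51.2%). Il13 and Il5 lie 86091 bases apart on chromosome 11. Btnl4 and Btnl6 lie 30441 bases apart on chromosome 17, and their 2 windows were identical at 225 of 251 aligned positions (89.6%). Reads of the pair may have been assigned unevenly, but their transcripts were not compared and this was not tested.

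Total counts were 5.13 to 12.6 M (mega-counts) per antibody library and 4.80 to 11.96 M per 4-week library. Sample numbers in the labels fall in 2 ranges, with 8 antibody and 4 4-week libraries in range 1 and 7 and 6 in range 2, and no source used here says what the ranges are. Markers of the labelled tissue were present throughout. The 13 type II alveolar markers summed to 30656 to 59728 counts per M (CPM; M stands for mega) in antibody libraries and to 33016 to 56249 CPM in 4-week libraries, and club cell markers to 7277 to 17058 CPM and 7245 to 19976 CPM. The 4-week library numbered 3 stood apart, at 91.0 on the second principal component against 5.44 to 31.6 for the other 9. Skeletal muscle genes summed to 664 and 487 CPM in antibody libraries 7 and 12 and to 1384 CPM in 4-week library 10, and to 28.7 CPM or less in every other library of both groups. Fat cell genes summed to 2095 CPM in antibody library 7.

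A large part of the transcriptome differed in both directions. Of 15598 genes tested by edgeR's quasi-likelihood test, 2864 (18.4%) were higher and 3018 (19.3%) lower under antibody than at 4 weeks at a Benjamini-Hochberg (BH) adjusted p under 0.05, 5882 (37.7%) in all. At least 2-fold changes made up 263 of the rises and 287 of the falls. A further 7384 genes (47.3%) were at the 4-week level, meaning that they were not called and that the 95% interval of their fold change lay within 1.5-fold. The other 2332 (15.0%) were unresolved. Groups did not overlap for 65 genes with every antibody library higher (0.417%) and for 136 with every antibody library lower (0.872%). Without 4-week library 3 the counts were 2278 higher and 2295 lower, and without that library and HDM 15-week library 1 they were 3070 and 2985.

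Genes that chronic HDM had moved were placed next. They were chosen from HDM 15-week and saline libraries alone, 14 libraries of which none is in the contrast, by edgeR's quasi-likelihood test at a BH adjusted p under 0.05, which called 3597 genes higher (23.1%) and 3283 lower (21%) at 15 weeks of HDM than in saline. Of the 3597 higher genes, 1260 (35%) lay below the 4-week level under antibody, 1371 (38.1%) at it and 463 (12.9%) above it, with 503 unresolved. Of the 3283 lower genes, 184 (5.6%) lay below the 4-week level, 1467 (44.7%) at it and 1032 (31.4%) above it, with 600 unresolved. Chosen instead on isotype and saline libraries, 4483 genes were higher (28.7%) and 4127 lower (26.5%); of these 1531 and 222 lay below the 4-week level, 1909 and 1982 at it and 498 and 1339 above it. For the genes chosen without antibody, the median log2 fold change, antibody over 4 weeks, was -0.15 for the higher genes and 0.19 for the lower ones, against 0.006 over all genes tested. Over all genes tested, 19.3% lay below the 4-week level and 18.4% above it. The 463 and 184 genes lay beyond the 4-week level in the direction that chronic HDM took.

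**Figure D1:**
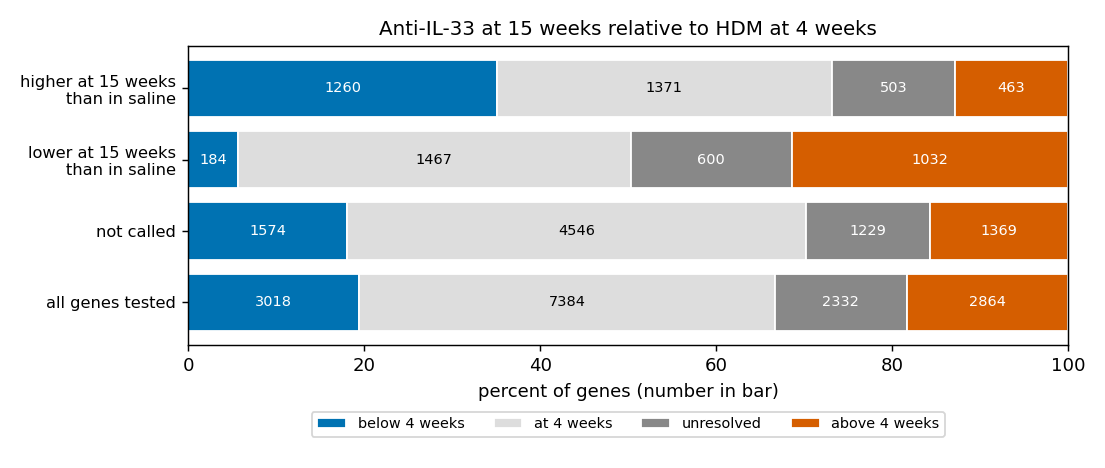
Position of genes under anti-IL-33 at 15 weeks relative to HDM at 4 weeks, as the percent of genes (x axis) in each class, with the number of genes in the bars. Rows are genes higher or lower at 15 weeks of HDM than in saline, genes not called in that comparison, and all 15598 genes tested; 1260 of the 3597 higher genes lay below the 4-week level and 1032 of the 3283 lower genes above it.

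Genes of type 2 immunity were among those furthest below the 4-week level. Where 3 CPM values are given for a group, they are its lowest, median and highest library, and log2 fold changes are antibody over 4 weeks with the standard error (SE) of the fit. Counts of list members that rose or fell stand against 18.4% and 19.3% of all genes tested. A count near these shares says nothing particular about its list. Il13 (Entrez 16163, chr11:53631323-53634702, GRCm38), the effector cytokine of type 2 disease, had 0, 0.209 and 1.17 CPM in antibody libraries, against 2.39, 5.28 and 9.95 CPM in 4-week libraries. The groups did not overlap, and its log2 fold change was -3.95 ± 0.44, with -5.47 in number range 1 and -3.22 in range 2 (BH adjusted p 6.30e-10, edgeR's quasi-likelihood test, as for all adjusted p-values here). Its median was 1.63 CPM at 15 weeks of HDM without antibody and 0 CPM in saline.

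Il5 (Entrez 16191, chr11:53720794-53725103), the eosinophil growth factor, had 0, 0.0951 and 0.542 CPM under antibody, against 0.856, 2.06 and 3.001 CPM at 4 weeks, with a log2 fold change of -3.62 ± 0.47. Il4, the Th2 cytokine, had 0, 0.274 and 0.636 CPM under antibody, against 0.9003, 1.84 and 2.75 CPM at 4 weeks, with -2.55 ± 0.34 (adjusted p 6.38e-09 for Il5 and 8.16e-08 for Il4). For both, all 15 antibody libraries lay below all 10 4-week libraries, though at these levels a library holds few reads of either gene. Il13ra2, a decoy receptor for IL-13 that IL-13 itself induces, had 0, 0.265 and 0.818 CPM under antibody, against 1.88, 3.83 and 8.79 CPM at 4 weeks (-3.60 on the log2 scale, adjusted p 7.14e-09). Of the 13 tested members of the list of type 2 cytokines, receptors and lymphocyte genes, 8 fell and 2 rose, 5 with groups that did not overlap, and the median log2 fold change was -1.18.

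The receptor for IL-33 was lower while Il33 itself was not resolved. Il1rl1 (Entrez 17082, chr1:40404864-40465418), which encodes ST2, had 6.58, 12.6 and 24.8 CPM under antibody, against 34.3, 44.9 and 62.9 CPM at 4 weeks. The groups did not overlap, and the log2 fold change was -1.82 ± 0.19, with -2.43 in range 1 and -1.35 in range 2 (adjusted p 1.34e-09). The antibody median lay near the saline median of 11.6 CPM. Il33 (Entrez 77125, chr19:29925113-29960718) had 21.5, 248 and 511 CPM under antibody, against 209.7, 364 and 522 CPM at 4 weeks, with overlapping groups and a log2 fold change of -0.41 ± 0.27 (95% interval -0.96 to 0.14, adjusted p 0.225). Its median was 579 CPM at 15 weeks of HDM without antibody and 70.4 CPM in saline. Every mouse carried the humanised Il33 gene, and whether its reads were counted under this ID is not stated. These values may therefore misstate Il33 expression. Il7r, a receptor chain for TSLP and IL-7, fell (-0.71, adjusted p 5.11e-04). Of the 8 tested members of the alarmin list, 3 fell, 2 rose and 3 were unresolved.

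The list of eosinophil-attracting chemokines, which also holds the receptor gene Ccr3, showed the deepest fall of any list. Of its 6 members 5 fell, Ccr3 among them, and the list median was -2.19 on the log2 scale. Ccl24 (Entrez 56221, chr5:135569935-135573123), eotaxin-2, a chemokine made largely by macrophages, had 0, 0.495 and 2.96 CPM under antibody, against 7.53, 47.3 and 76.02 CPM at 4 weeks. Its log2 fold change of -5.95 ± 0.49 was the largest fall of the genes named by size, with -6.59 in range 1 and -5.48 in range 2 (adjusted p 2.18e-12), and the groups did not overlap. Its median was 4.55 CPM at 15 weeks without antibody and 0.609 CPM in saline. Ccl11, eotaxin-1, from stromal and epithelial cells, had 3.83, 13.9 and 28.2 CPM under antibody, against 59.2, 91.95 and 164 CPM at 4 weeks, again without overlap (-2.70, adjusted p 1.49e-09). Ccl8 had 19.9, 32.97 and 61.9 CPM under antibody, against 25.3, 117 and 195 CPM at 4 weeks (-1.62, adjusted p 3.39e-06), and its groups overlapped, with 2 of 15 antibody libraries below the lowest 4-week library.

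Ccr3, the eotaxin receptor of eosinophils, had 0.706, 2.02 and 5.19 CPM under antibody, against 7.98, 17.9 and 32.2 CPM at 4 weeks, with no overlap (-3.10, adjusted p 5.08e-10). Alox15, a lipoxygenase of eosinophils and macrophages, fell (-2.78), as did Prg2, the eosinophil major basic protein gene (-0.87, adjusted p 9.58e-04). Among 9 tested eosinophil markers 4 fell, 1 rose and 4 were not called, and Ccr3 counts on this list as well as on the chemokine list. The one that rose, Ear1, is also on the alveolar macrophage list. In bulk lung, fewer cells of a type and less RNA per cell cannot be told apart, and this holds for every cell marker here. Among other chemokines, Ccl9 was lower in every antibody library (31.1, 48.4 and 85.3 CPM, against 142, 253 and 348 CPM at 4 weeks) and Ccl2, a monocyte attractant, fell (-1.44, adjusted p 4.94e-05). Of the 8 members of that list, 4 fell and none rose. Among 11 mast cell and basophil markers 2 fell, Kit (-0.35, adjusted p 0.0305) and Mcpt8 (-1.54, adjusted p 0.0436), and 9 were unresolved, among them Mcpt2. Kit was not called without the libraries high in fat or skeletal muscle genes (-0.28), nor Mcpt8 without 4-week library 3 and HDM 15-week library 1 (-1.30).

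**Figure D2:**
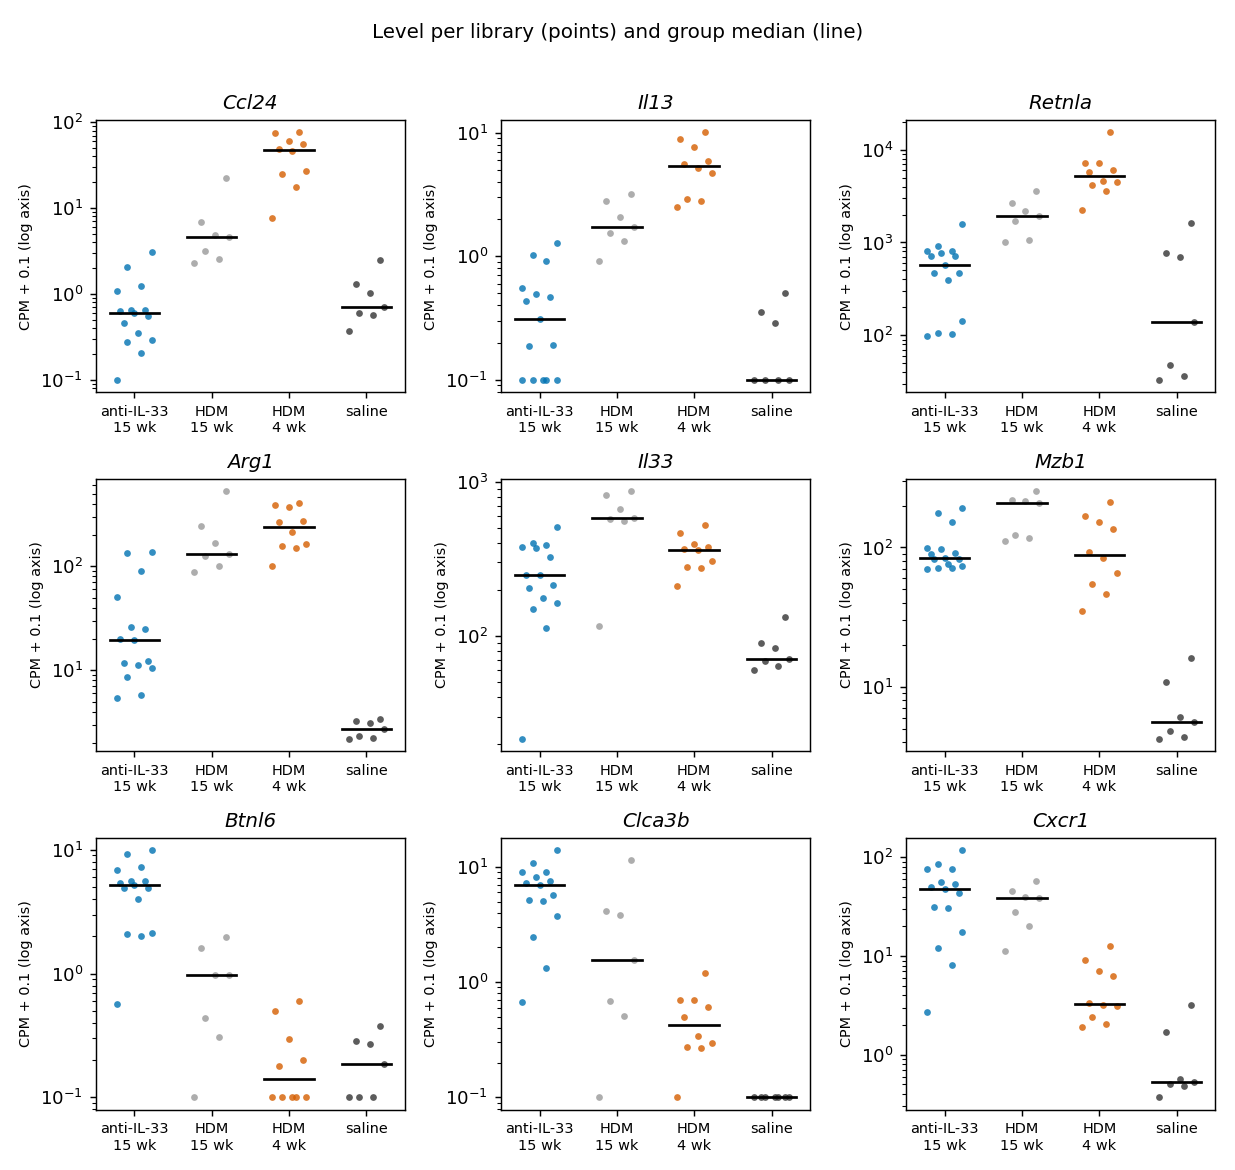
Level of 9 genes in each library (points, CPM + 0.1 on a log axis) with the group median (line), for anti-IL-33 at 15 weeks, HDM at 15 weeks, HDM at 4 weeks and saline. Ccl24, Il13 and Retnla are below every 4-week library in all 15 antibody libraries, Mzb1 and Il33 overlap, and Btnl6, Clca3b and Cxcr1 are above the highest 4-week library in 14, 14 and 12 of 15 antibody libraries.

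Alternatively activated macrophage genes, the set that IL-4 and IL-13 induce in macrophages, fell in 13 of 15 cases with none rising, a median log2 fold change of -1.52 and 5 members without overlap. Retnla (Entrez 57262, chr16:48842609-48844461), a secreted resistin-like protein whose upstream sequence is given above, had 98.4, 566 and 1580 CPM under antibody, against 2237, 5157 and 15367 CPM at 4 weeks. All antibody libraries lay below all 4-week libraries, with a log2 fold change of -3.44 ± 0.50 (-4.64 in range 1 and -2.43 in range 2, adjusted p 3.91e-06). Rnase2a, an eosinophil-associated ribonuclease once named Ear11, had 0.966, 4.85 and 18.2 CPM under antibody, against 53.1, 119 and 164 CPM at 4 weeks (-4.25, adjusted p 2.55e-10).

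Arg1 (Entrez 11846, chr10:24915207-24927470), arginase 1, had 5.36, 19.3 and 136 CPM under antibody, against 100.2, 238 and 408 CPM at 4 weeks, with 13 of 15 antibody libraries below the lowest 4-week library and a log2 fold change of -2.69 ± 0.45 (adjusted p 2.00e-05). Its antibody libraries spread widely, and its median was 133 CPM at 15 weeks without antibody and 2.61 CPM in saline. Chil4, a chitinase-like protein, had 2.28, 27.3 and 119 CPM under antibody, against 279, 429 and 946 CPM at 4 weeks (-3.63, adjusted p 7.41e-05; -2.50 and not called in range 2 alone). Mmp12, macrophage elastase, had 15.5, 73.5 and 438 CPM under antibody, against 305, 909 and 2303 CPM at 4 weeks (-3.15, adjusted p 1.57e-06). Pdcd1lg2, which encodes PD-L2, and Mgl2, a macrophage and dendritic cell lectin, were lower in all 15 antibody libraries (-1.80 and -1.41). Chil3, the chitinase-like gene also on the alveolar macrophage list, was unresolved, with 1186, 7893 and 21819 CPM under antibody, against 6399, 12160 and 14762 CPM at 4 weeks.

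Alveolar macrophage markers were called in the upward direction. Of 13 alveolar macrophage markers 6 rose and none fell, with a median of 0.58. Plet1 had 90.7, 165 and 489.6 CPM under antibody, against 17.2, 45.7 and 101 CPM at 4 weeks (2.07, adjusted p 1.10e-06), with 14 of 15 antibody libraries above the highest 4-week library, and its median was 174 CPM at 15 weeks without antibody. Marco, a scavenger receptor gene on the same list but named after its values were seen, had 1.92, 36.1 and 93.4 CPM under antibody, against 0.345, 3.44 and 27.8 CPM at 4 weeks (2.50, adjusted p 0.00413). Ear1 had 3.93, 8.06 and 22.6 CPM under antibody, against 1.02, 2.48 and 4.47 CPM at 4 weeks, and a saline median of 19.8 CPM. Lyz2, lysozyme of myeloid and type II cells, rose (0.87, adjusted p 5.73e-05), 13 of 15 antibody libraries lying above the highest 4-week library. Among 14 monocyte and interstitial macrophage markers 5 fell and 2 rose. C1qb, a complement gene of tissue macrophages, was among those that fell (-0.50, adjusted p 0.00189), but it was at -0.22 and not called with offsets for the GC content and length of genes and not called in range 2 alone.

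Goblet cell and mucus genes fell in 8 of 13 tested cases and rose in 1, with a median of -0.74. Slc26a4, pendrin, an anion exchanger that IL-13 induces in airway epithelium, had 35.98, 125 and 275 CPM under antibody, against 493.4, 608 and 701 CPM at 4 weeks. Its groups did not overlap and its log2 fold change was -2.08 ± 0.29, with -2.31 in range 1 and -1.91 in range 2 (adjusted p 8.64e-07). At 15 weeks without antibody its median was 499 CPM and in saline 18.9 CPM. Clca1, a secreted goblet cell protein, had 47.6, 183 and 893 CPM under antibody, against 813, 1402 and 2124 CPM at 4 weeks (-2.48, adjusted p 0.00154; -2.20 and not called in range 2 alone).

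Agr2, needed for mucin folding, had 1.33, 4.81 and 8.13 CPM under antibody, against 7.08, 10.4 and 32.1 CPM at 4 weeks (-1.44, adjusted p 2.22e-04). Muc5ac, the inducible airway mucin, had 4.93, 17.8 and 30.7 CPM under antibody, against 15.1, 33.3 and 57.6 CPM at 4 weeks, and its groups overlapped (-1.04, adjusted p 0.0172). The member that rose was Bpifa1, a secreted airway defence protein named after its values were seen (2.36, adjusted p 0.00632). Neither Agr2 nor Muc5ac was called in range 2 alone.

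Ciliated, club and some alveolar genes were on the other side of the 4-week level. Of 12 ciliated cell markers 8 rose and none fell, with a median of 0.47. Hydin, a ciliary axoneme protein, had 25.5, 37.8 and 73.7 CPM under antibody, against 9.11, 21.98 and 39.1 CPM at 4 weeks (1.04, adjusted p 3.36e-04), and a saline median of 56.2 CPM. Cfap44, another axoneme gene, rose (0.96), as did Foxj1, the transcription factor of ciliogenesis (0.46, adjusted p 0.0351). Hydin and Cfap44 were not called in range 2 alone, and Foxj1 was called in neither range alone. Of 10 club cell markers 5 rose and none fell. Scgb3a2, a secretoglobin, had 118, 210.2 and 385 CPM under antibody, against 44.97, 73.5 and 304 CPM at 4 weeks (1.2, adjusted p 7.11e-04), and Hp, haptoglobin, rose (0.69). Scgb1a1, the main club cell secretory protein, was at the 4-week level, with 4526, 7317 and 12080 CPM under antibody, against 5194, 7693 and 15952 CPM at 4 weeks and a saline median of 15881 CPM.

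Type II alveolar markers moved both ways, 6 of 13 rising and 3 falling. Scd1, a desaturase used in surfactant lipid synthesis, rose (0.64, adjusted p 0.00184). Sftpd, a collectin of surfactant, fell (-0.41, adjusted p 0.0415), but without 4-week library 3 and HDM 15-week library 1 its log2 fold change was -0.29 and not called. Of 12 type I markers 2 rose, among them Rtkn2 (0.43, adjusted p 0.028; called in neither range alone), and 3 fell, among them Pdpn (-0.47) and Igfbp2 (-0.92). Both counts were near the shares over all genes tested, 18.4% higher and 19.3% lower. Hopx was at the 4-week level. Among 14 endothelial markers 4 fell and 1 rose. Kdr, the main VEGF receptor, was at the 4-week level (115, 233 and 341 CPM under antibody, against 90.3, 188 and 299.6 CPM at 4 weeks), well under its saline median of 495 CPM. Among 7 tested basal and squamous epithelial genes Serpinb2 (-1.81) and Ngfr (-0.90) fell and 5 were unresolved. The sum of this list was very uneven between libraries. Its median was 8.46 CPM under antibody and 17.8 CPM at 4 weeks, but the highest libraries reached 313 CPM and 191 CPM. Whether those libraries held squamous tissue from outside the lung was not tested.

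Several genes that chronic HDM had lowered relative to saline lay above their 4-week level under antibody. Sult1d1, a sulfotransferase, had 2.51, 6.35 and 18.3 CPM under antibody, against 0.778, 1.46 and 3.501 CPM at 4 weeks (2.18, adjusted p 4.28e-06), and a saline median of 17.9 CPM. Fabp1, a fatty acid binding protein, had 0.278, 1.37 and 2.72 CPM under antibody, against 0, 0.165 and 0.778 CPM at 4 weeks (2.93, adjusted p 4.17e-06), and a saline median of 5.12 CPM. Asgr1, a lectin best known from liver, was higher too (1.51, adjusted p 0.0178; called in neither range alone nor by limma-voom), with a median of 0.449 CPM under antibody, against 0.166 CPM at 4 weeks and 4.71 CPM in saline. Zbtb16, a transcription factor that glucocorticoids induce and that innate-like lymphocytes use, had 13.4, 30.2 and 89.1 CPM under antibody, against 8.69, 11.2 and 19.9 CPM at 4 weeks (1.44, adjusted p 2.43e-04), and its antibody median was above its saline median of 28.4 CPM. Of 10 glucocorticoid-responsive genes 4 rose, among them Pdk4 (1.33), and none fell. This list as a whole was not lower in chronic HDM. The median of its mean log2 CPM was 5.66 at 15 weeks without antibody and 5.65 in saline. Under antibody it was 5.84 and at 4 weeks 5.48.

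**Figure D3:**
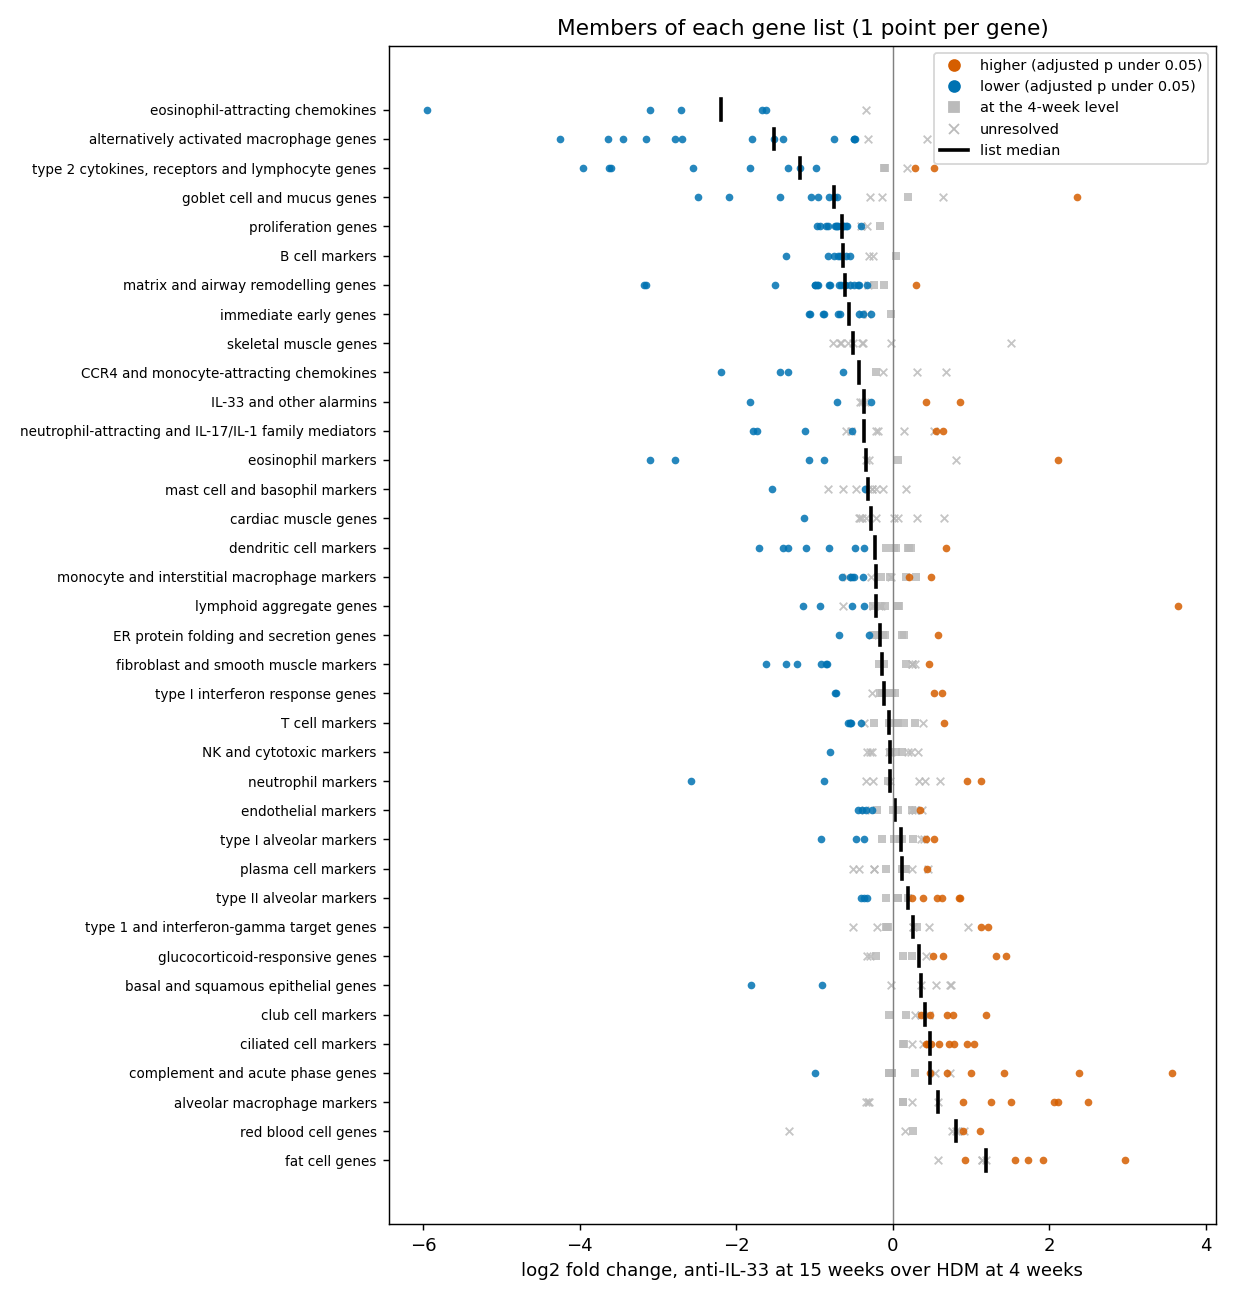
Log2 fold change, anti-IL-33 at 15 weeks over HDM at 4 weeks (x axis), of every tested member of each gene list (rows, ordered by median), with the list median as a black bar. Eosinophil-attracting chemokines (a list that includes the receptor gene Ccr3), alternatively activated macrophage genes and type 2 genes have the lowest medians, at -2.19, -1.52 and -1.18, and fat cell genes the highest, at 1.19.

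Matrix and airway remodelling genes were mostly below the 4-week level, 18 of 23 falling and 1 rising, with a median of -0.61. Mmp13, a collagenase, had 1.13, 2.38 and 4.71 CPM under antibody, against 6.61, 15.7 and 55.2 CPM at 4 weeks, with no overlap (-3.18, adjusted p 1.30e-07). Ccn2, connective tissue growth factor, had 51.4, 72.2 and 122 CPM under antibody, against 127, 154 and 191 CPM at 4 weeks, also without overlap (-0.99 ± 0.13, adjusted p 1.82e-07), and a saline median of 101 CPM. Timp1, an inhibitor of metalloproteinases, had 3.29, 10.8 and 39.3 CPM under antibody, against 21.4, 35.1 and 103 CPM at 4 weeks (-1.51, adjusted p 0.00189), and a median of 87.4 CPM at 15 weeks without antibody.

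Tnc, tenascin C, fell (-0.99), and so did the fibrillar collagen genes Col3a1 (-0.80, adjusted p 1.05e-04) and Col1a1 (-0.60, adjusted p 0.0211). Col1a1 was called in neither range alone, and Timp1 and Tnc were not called in range 2 alone. Of 14 fibroblast and smooth muscle markers 6 fell and 1 rose. Actg2, smooth muscle gamma actin, had 11.9, 17.5 and 25.1 CPM under antibody, against 28.9, 54.8 and 71.4 CPM at 4 weeks (-1.61, adjusted p 2.05e-09), and Tagln, transgelin, was likewise lower in all 15 antibody libraries (-1.23). Both had been uncalled between 15 weeks of HDM and saline, with medians of 20.9 CPM and 21.7 CPM for Actg2. Inmt, an alveolar fibroblast gene, was unresolved.

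Proliferation genes fell in 14 of 17 cases and none rose, with a median of -0.65. Birc5, survivin, had 3.52, 5.64 and 7.68 CPM under antibody, against 5.31, 9.899 and 17.7 CPM at 4 weeks (-0.97, adjusted p 2.61e-06), and Cdc20 and Aurkb, mitotic regulators, fell by 0.93 and 0.60 on the log2 scale. Immediate early genes, which are induced within minutes of a stimulus, fell in 9 of 12 cases and none rose. Nr4a1 had 11.9, 16.7 and 27.96 CPM under antibody, against 21.8, 40.4 and 48.5 CPM at 4 weeks (-1.07, adjusted p 3.99e-07), and Egr3 fell (-0.88).

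**Figure D4:**
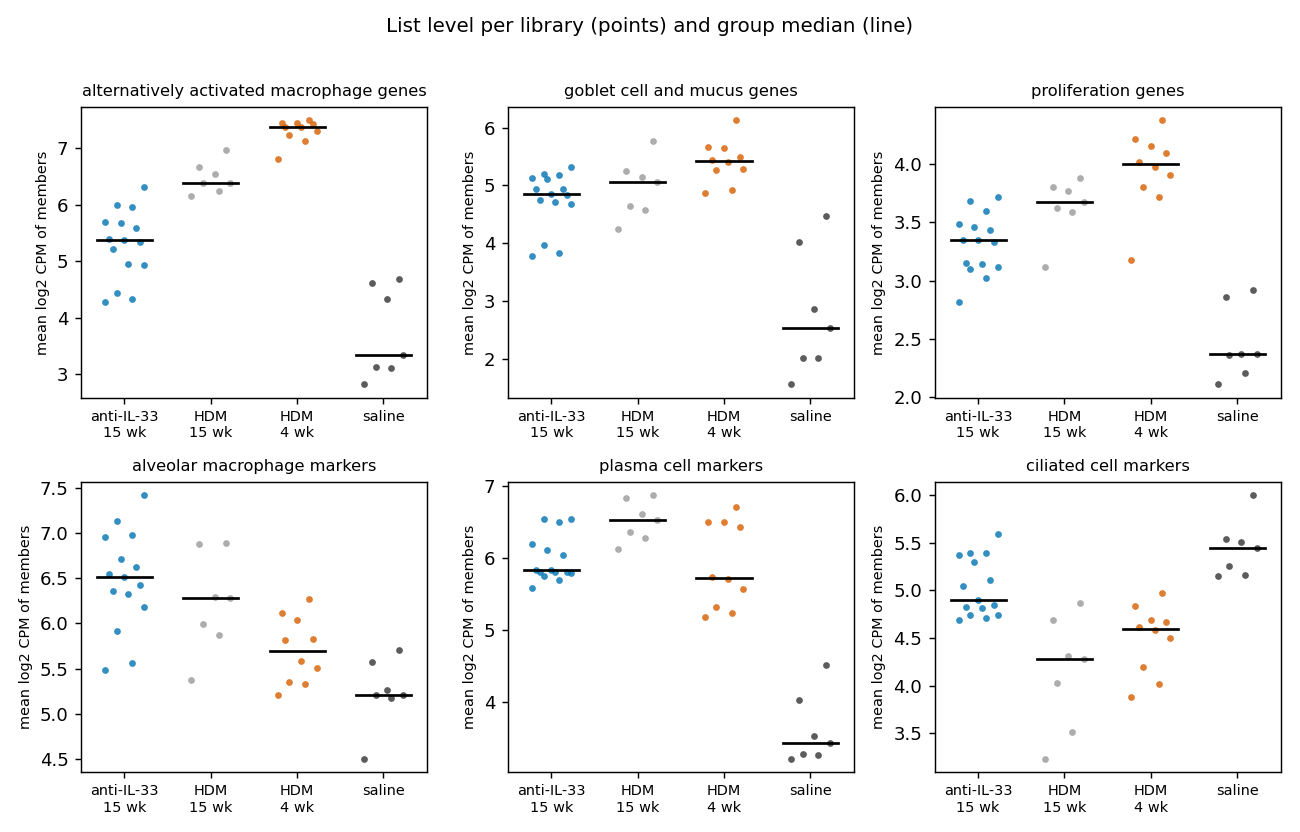
Mean log2 CPM of the members of 6 gene lists in each library (points) with the group median (line), for anti-IL-33 at 15 weeks, HDM at 15 weeks, HDM at 4 weeks and saline. For alternatively activated macrophage genes the antibody libraries range from 4.28 to 6.31 and the 4-week libraries from 6.81 to 7.49, while for plasma cell markers the medians are 5.83 and 5.72.

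Most B cell markers were below the 4-week level. Among 15 T cell markers 5 fell and 1 rose, and 7 were at the 4-week level, a share near the 47.3% of all genes tested. Cd4 was one of these 7, with 16.8, 22.8 and 43.8 CPM under antibody, against 19.4, 25.02 and 29.4 CPM at 4 weeks (log2 fold change 0.07 ± 0.14, 95% interval -0.20 to 0.35), and Foxp3, the regulatory T cell factor, was another (0.14 ± 0.16, 95% interval -0.17 to 0.46). The costimulatory receptor genes Icos and Tnfrsf4 fell (-0.55 and -0.57, adjusted p 3.27e-04 and 0.00171), though Tnfrsf4 was called in neither range alone and was at -0.30 and not called with GC and length offsets. B cell markers fell in 7 of 10 cases and none rose, with a median of -0.63. Pax5, the B lineage factor, had 5.72, 8.64 and 16.9 CPM under antibody, against 10.003, 22.1 and 56.8 CPM at 4 weeks (-1.36, adjusted p 1.02e-05), and Fcer2a, the low-affinity IgE receptor, fell (-0.69). Ltb, a cytokine of lymphoid tissue, fell (-1.14, adjusted p 8.03e-06), one of 4 that fell and 1 that rose among 14 lymphoid aggregate genes. The one that rose, Glycam1, had at most 0.2 CPM at 4 weeks.

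Plasma cell markers were mostly unresolved. Of 11 tested, 1 rose, none fell, 4 were at the 4-week level and 6 were unresolved. Over all genes tested 47.3% were at the 4-week level and 15.0% were unresolved. Mzb1, a plasma cell chaperone, had 69.8, 83.6 and 190.5 CPM under antibody, against 34.8, 88.3 and 211 CPM at 4 weeks, a log2 fold change of -0.08 ± 0.25 and a 95% interval of -0.58 to 0.43. Its median was 207 CPM at 15 weeks without antibody and 5.48 CPM in saline, so the antibody and 4-week groups both stood between these. Jchain, the joining chain of secreted antibodies, was unresolved (1619, 3021 and 6955 CPM under antibody, against 974, 1966 and 4838 CPM at 4 weeks), as was Derl3. Prdm1, the plasma cell factor, rose (0.44, adjusted p 0.00871), but in range 2 alone it was at 0.14 and with GC and length offsets at 0.27, and was called in neither. Among 12 genes of ER protein folding and secretion 8 were at the 4-week level, Sec61b fell (-0.68) and Dnajb9 rose (0.57).

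Of 14 dendritic cell markers 7 fell and 1 rose, and Batf3, a factor of conventional dendritic cells, was lower in all 15 antibody libraries (2.03, 3.29 and 3.88 CPM, against 6.202, 9.2997 and 21.01 CPM at 4 weeks; -1.71, adjusted p 1.37e-11). NK and cytotoxic markers were largely unresolved, 8 of 12. Gzma, granzyme A, fell (-0.80, adjusted p 0.00159), Ncr1 was at the 4-week level (1.63, 3.14 and 7.52 CPM under antibody, against 1.77, 3.13 and 5.73 CPM at 4 weeks), and Prf1 and Cd8a were unresolved. Of 12 tested type 1 and interferon-gamma target genes 2 rose, a share near the 18.4% of all genes tested, and none fell. Il12rb2, the signalling chain of the IL-12 receptor, had 2.22, 3.35 and 4.81 CPM under antibody, against 0.195, 1.53 and 2.201 CPM at 4 weeks, without overlap (1.21, adjusted p 6.39e-05), and Cxcl9, an interferon-gamma induced chemokine, rose (1.13, adjusted p 0.0222) but was called in neither range alone. Ifng was unresolved (0.96 ± 0.42, adjusted p 0.0598). Of 13 type I interferon response genes 2 rose, 2 fell (Mx1, -0.74, and Isg15, -0.72) and 8 were at the 4-week level. Mx1 was not called in range 1 alone, and Isg15 was at -1.18 in range 1, which holds 4-week library 3, and at -0.35 and not called in range 2.

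Mediators and markers of neutrophils were mixed. Of 12 tested mediators 4 fell and 2 rose. Cxcl3, a neutrophil attractant, had 0.329, 1.35 and 4.34 CPM under antibody, against 2.31, 4.52 and 13.2 CPM at 4 weeks (-1.79, adjusted p 3.28e-05), Il6 fell (-1.74, adjusted p 8.36e-05) and Cxcl5 fell (-1.12, adjusted p 0.0311). Cxcl3 was not called in range 2 alone (-0.96) and Cxcl5 in neither range alone. Tnf rose (1.603, 5.47 and 10.2 CPM under antibody, against 2.41, 3.01 and 5.64 CPM at 4 weeks; 0.64, adjusted p 0.0185) and was not called in range 1 alone. Cxcl1, Il17a and Lcn2 were unresolved; Lcn2, an antibacterial siderophore-binding protein, spanned 215, 882 and 2689 CPM under antibody, against 424, 859.9 and 1233 CPM at 4 weeks, and its median was 2050 CPM at 15 weeks without antibody.

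Of 11 neutrophil markers 2 rose and 2 fell, shares near the 18.4% and 19.3% of all genes tested. Retnlg (Entrez 245195, chr16:48872608-48874498), a resistin-like gene of neutrophils that lies near Retnla on chromosome 16, had 7.23, 11.97 and 23.1 CPM under antibody, against 55.2, 69.03 and 112 CPM at 4 weeks (-2.58 ± 0.19, adjusted p 6.56e-13). Its groups did not overlap, and reads it might share with Retnla were not examined here. Mmp8, neutrophil collagenase, rose (3.13, 6.47 and 25.5 CPM under antibody, against 1.199, 3.41 and 5.74 CPM at 4 weeks; 1.13, adjusted p 5.41e-04).

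Among 15 complement and acute phase genes 6 rose and 1 fell, with a median of 0.48. Cfb, complement factor B, had 63.98, 124 and 238 CPM under antibody, against 47.6, 68.7 and 99.7 CPM at 4 weeks (1.005, adjusted p 8.36e-05), and a median of 157 CPM at 15 weeks without antibody. C3, the central complement component, was the member that fell (1215, 1810 and 2679 CPM under antibody, against 2541, 3710 and 4559 CPM at 4 weeks; -0.99, adjusted p 1.21e-07). Saa3, a serum amyloid gene made in lung, was unresolved, with 3.15, 46.8 and 269 CPM under antibody, against 15.1, 55.5 and 171 CPM at 4 weeks and a median of 377 CPM at 15 weeks without antibody; its log2 fold change was -0.24 in range 1 and 1.15 in range 2.

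Some genes lay above the 4-week level, the direction that chronic HDM also took. Cxcr1 (Entrez 227288, chr1:74191785-74194708), a chemokine receptor, had 2.599, 47.5 and 118 CPM under antibody, against 1.799, 3.14 and 12.4 CPM at 4 weeks. Of the 15 antibody libraries 12 were above the highest 4-week library, and the log2 fold change was 3.34 ± 0.42, with 3.22 in range 1 and 3.34 in range 2 (adjusted p 6.37e-07). Its median was 38.8 CPM at 15 weeks without antibody and 0.435 CPM in saline. Awat1, an acyltransferase of wax synthesis, rose (2.74, 36.9 and 121 CPM under antibody, against 4.45, 14.5 and 39.5 CPM at 4 weeks; 1.38, adjusted p 0.00726). Orm2, an acute phase protein, Dmbt1, a mucosal defence protein, Card14, a scaffold of NF-kB signalling, Cd200r2, a myeloid receptor, and Bmp8a, a growth factor, were among the 10 largest rises, at 3.57, 3.57, 3.31, 3.54 and 5.02 on the log2 scale, and for each the median at 15 weeks without antibody was also above the highest 4-week library. The isotype medians of Dmbt1, Card14 and Cd200r2 were above it too. For Bmp8a the isotype median was 0.426 CPM, below the highest 4-week library at 0.584 CPM. Bmp8a exceeded that library in 11 of 15 antibody libraries, and Card14 exceeded its highest 4-week library in 9 of 15.

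Not every late gene did so. Fgf23, a hormone gene with a median of 13.9 CPM at 15 weeks without antibody, had 0, 0.594 and 9.92 CPM under antibody, against 3.201, 7.03 and 16.3 CPM at 4 weeks (-2.19, adjusted p 7.60e-04; not called in range 2 alone). Npy, neuropeptide Y, with a median of 21.9 CPM at 15 weeks without antibody, was unresolved (0, 2.47 and 19.6 CPM under antibody, against 1.199, 2.26 and 10.8 CPM at 4 weeks).

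The pair with the largest rises was at or near 0 CPM at 4 weeks. Btnl4 (Entrez 632126, chr17:34468410-34477428) and Btnl6 (Entrez 624681, chr17:34507870-34518776) encode butyrophilin-like proteins, a family whose members in the gut epithelium act on local gamma-delta T cells. Btnl6 had 0.463, 5.06 and 9.85 CPM under antibody, against 0, 0.0404 and 0.5001 CPM at 4 weeks, with medians of 0.874 CPM at 15 weeks without antibody and 0.08696 CPM in saline. Btnl4 had 0.648, 3.41 and 6.57 CPM under antibody, against 0, 0 and 0.1999 CPM at 4 weeks, with a median of 0.627 CPM at 15 weeks without antibody. The log2 fold changes were 5.57 ± 0.95 for Btnl4 and 5.47 ± 0.79 for Btnl6 (adjusted p 9.07e-09 and 2.88e-09). In the 4 isotype libraries Btnl6 ranged up to 4.03 CPM and Btnl4 up to 3.83 CPM, both in isotype library 4, which is above the antibody median for Btnl4 and below it for Btnl6. Btnl4 did not overlap and Btnl6 was above the highest 4-week library in 14 of 15 antibody libraries. With most 4-week libraries at or near 0, the size of these fold changes is loosely determined, as the SEs show.

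Clca3b (Entrez 229927, chr3:144822623-144849302), a chloride channel accessory gene, had 0.571, 6.88 and 13.9 CPM under antibody, against 0, 0.321 and 1.102 CPM at 4 weeks (3.97 ± 0.64, adjusted p 6.17e-06), with 14 of 15 antibody libraries above the highest 4-week library and a median of 1.46 CPM at 15 weeks without antibody. Erv3, an endogenous retroviral gene, had 0, 0.529 and 18.4 CPM under antibody, against 0, 0.192 and 0.778 CPM at 4 weeks, and only 5 of 15 antibody libraries exceeded the 4-week range (3.596, adjusted p 0.00243). Its log2 fold change was 0.88 and not called in range 1 and 4.77 in range 2.

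Among the other large falls, Serpina11, a serpin, Cebpe, a transcription factor of granulocyte maturation, and Rbp4, a retinol carrier, were each lower in all 15 antibody libraries, at -4.87, -4.51 and -3.64 on the log2 scale. Cebpe had 0, 0.307 and 1.296 CPM under antibody, against 4.801, 9.57 and 18.7 CPM at 4 weeks. Rbp4 had 6.83, 8.71 and 25.4 CPM under antibody, against 39.96, 123 and 275 CPM at 4 weeks and a saline median of 11.6 CPM. Ifi202b differs in kind: its 4-week median was 0.178 CPM and its highest 4-week library 12.8 CPM, so its fall (-4.45, adjusted p 1.41e-05) rests on a minority of 4-week libraries. Its log2 fold change was -5.64 in range 1 alone. In range 2 alone it did not pass the filter on low counts and was not tested, so the fall is not shown there.

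Genes of tissues that can accompany lung were measured beside these. Fat cell genes rose in 5 of 9 cases, among them Cidec (1.74; called in neither range alone) and Pck1 (2.97). Without the libraries high in fat or skeletal muscle genes, antibody libraries 7 and 12 and 4-week library 10 among them, Pck1 was at 0.94 and not called. Red blood cell genes rose in 2 of 9 cases, among them Alas2 (1.12), which without the same libraries was at 0.72 and not called, and the sum of the list ranged from 519 to 11416 CPM under antibody and from 1151 to 10201 CPM at 4 weeks. No skeletal muscle gene and 1 of 10 cardiac muscle genes, Actc1 (-1.13, adjusted p 6.14e-07), was called. The part of these tissues in the other results was not tested beyond leaving out those libraries.

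The contrast was then computed in each number range by itself, from separate libraries. Across the 15405 genes that could be fitted in both ranges the log2 fold changes correlated at r = 0.62, a description across genes, which are not independent replicates. Of the 5846 of these that were called in all libraries, a call that used both ranges, 5834 had the same sign in each. Mcpt8 did not pass the filter on low counts in range 1 alone, nor Ifi202b in range 2 alone. Among the called genes named here and tested in a range, 28 were not called in range 1 alone and 27 not in range 2 alone. Beside those already said, they were Alas2, Awat1, Bmp8a, Bpifa1, Card14, Cfb, Glycam1, Hp, Kit, Marco, Ngfr, Pck1, Pdk4, Prg2, Scgb3a2 and Serpinb2 in range 1, Aurkb, Mcpt8, Scd1, Sec61b and Zbtb16 in range 2, and Sftpd in both. The difference of the contrast between ranges was called by edgeR's quasi-likelihood test for 1 gene of 15598 (0.00641%), the predicted gene Gm4432, named after its value was seen. At an unadjusted p under 0.05 there were 1196 such genes, where 779.9 are expected with no difference.

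**Figure D5:**
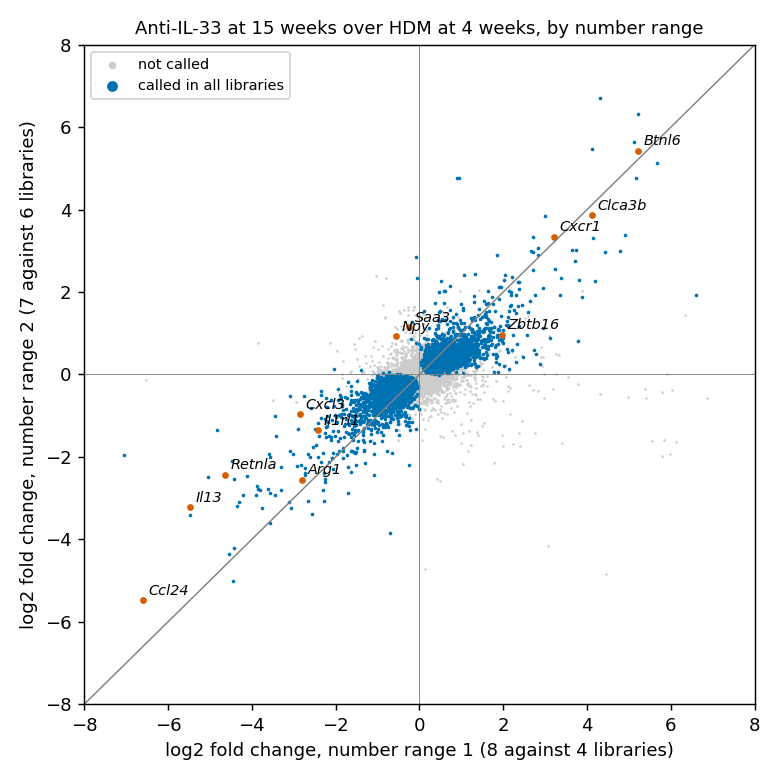
Log2 fold change, anti-IL-33 at 15 weeks over HDM at 4 weeks, in number range 1 (x axis, 8 against 4 libraries) and number range 2 (y axis, 7 against 6 libraries), 1 point per gene, with genes called in all libraries in blue and 12 named genes in orange. Ccl24 is at -6.59 and -5.48 and Btnl6 at 5.21 and 5.43, while Saa3 and Npy lie on opposite sides of 0 in the 2 ranges.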

How the data were processed

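Strand-specific mRNA libraries from lung total RNA were sequenced, and the authors deposited 1 table of raw counts, whole and not normalized, by Entrez gene ID. The genome build was GRCm38 per the submitters' processing notes. No source used here names the aligner, counting tool, annotation, strand setting or filters. Of 24475 IDs, 24375 were matched to a gene in RefSeq (GRCm38.p6), and the 100 unmatched IDs, with 2.62% of counts, were kept in library totals. Reads of near-identical or overlapping genes may be assigned unevenly.

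Libraries were grouped by their titles. All 43 entered 1 edgeR 4.0.16 quasi-likelihood fit (R 4.3.3; filterByExpr with a minimum count of 10, TMM, robust) whose terms were group and number range. The contrast was anti-IL-33 at 15 weeks minus HDM at 4 weeks. Intervals of 95% came from the fit's SE. No 2 libraries of a group agreed within sampling noise, the lowest chi-square per degree of freedom of a pair being 5.20. CPM use TMM-scaled library sizes, and no intervals of counts are given. The spread between libraries exceeded counting error over the better-counted genes used to compare pairs. Genes with few reads were not covered by that comparison. Alternatives used DESeq2 1.42.0, limma 3.58.1 and other filters, scalings and samples, and the one without libraries high in fat or skeletal muscle genes was added after the data were seen. Figures used Python 3.11.15.

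The members and the 37 gene lists (465 entries) were chosen with earlier results of these data known. Named genes are the 10 largest rises and falls among called genes whose mean reached 2 CPM in 1 of the groups (predicted genes, clone names and antigen receptor segments were not named), in each list up to 2 called members by p, and a fixed set of names; others are marked as named after their values were seen, and some genes that the rule picks are not reported here. On simulated data for this contrast (15598 genes, 200 changed) the fit recovered 92.5% of 2-fold and 65.7% of 1.5-fold changes, 2.82% of calls were false, and 95.2% of intervals held the true value. The simulated counts were drawn from the fitted model, with the same spread of a gene in every group. In the real libraries 37.7% of genes were called and spreads differed between groups, so these rates need not hold there.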

Additional observations from a re-analysis of the deposited data

Results flagged for a closer look

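Levels of 140 named genes were examined for a 4-week library far from the other 9 of its group, by Dixon's test at the 95% level, which chance alone passes in about 1 of 20 groups. The antibody group, with 15 libraries, is too large for this test. It picked out 13 genes, and the 4-week library numbered 3 accounted for 8 of them. In that library Hopx was at 583.8 CPM with the next library at 333.4 CPM, Scgb1a1 at 15950 CPM with the next at 9324 CPM, Scgb3a2 at 304.0 CPM with the next at 93.56 CPM, and Sftpd at 3339 CPM with the next at 2034 CPM. The same library was highest for Igfbp2 at 224.3 CPM, Isg15 at 33.46 CPM and Hp at 836.1 CPM, and lowest for Kit at 68.67 CPM, where the next was at 143.6 CPM.

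The 4-week library numbered 8 was lowest for Ccl2 at 3.423 CPM, with the next at 6.797 CPM, for C1qb at 71.62 CPM and for Tnfrsf4 at 3.337 CPM. The 4-week library numbered 4 was lowest for Mmp8 at 1.199 CPM, with the next at 2.883 CPM, and for Bpifa1 at 0.1999 CPM, with the next at 1.889 CPM.

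The contrast differed between number ranges for the predicted gene Gm4432 (adjusted p 0.0202, edgeR's quasi-likelihood test of the difference). It was at 0 CPM in all 8 antibody libraries of range 1 and between 0.982 and 2.17 CPM in all 7 of range 2, while the 4-week libraries were at 5.57, 2.15, 5.25 and 0 CPM in range 1 and at 0 CPM in all 6 of range 2.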

How the results depend on the processing

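Of 118 called genes named here, 115 could be fitted under all 14 alternatives (Ifi202b, Mcpt8 and Glycam1 could not), and 71 of these kept their direction and call in each. None of the 118 changed sign. Ifng, Lcn2 and Mcpt2, uncalled here, were called under 3, 1 and 2 alternatives. Gm4432, also uncalled here, was called in range 1 alone (-7.73) and, with the opposite sign, in range 2 alone (7.08). Counts of higher and lower genes stayed within 1.5 times under other size factors or filters, DESeq2, limma-voom, no term for number range, only the 2 groups, GC and length offsets, and without outlying libraries. Leaving out 1 library at a time, higher genes numbered 2278 to 3100 and lower genes 2295 to 3248, with the lowest counts of both without 4-week library 3. Number range 1 alone had 975 higher, 1523 lower and 4781 at the 4-week level, with genes raised by chronic HDM 180 below, 141 at and 75 above, and lowered genes 18 below, 162 at and 106 above. Range 2 alone had 1291 higher and 1347 lower, raised genes 491 below, 2056 at and 323 above, and lowered genes 112 below, 1911 at and 359 above. A test against a 1.2-fold change had 785 higher and 875 lower, 351 raised genes below and 180 above, and 27 lowered genes below and 246 above; it gives no interval. With genes moved at least 2-fold by chronic HDM, raised genes were 415 below, 350 at and 238 above, and lowered genes 36 below, 404 at and 387 above. Library size alone left 904 raised genes at the 4-week level, GC and length offsets gave 333 lowered genes below and 2275 at, and the narrower margin 3799 genes at; the cause was not tested.

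Changes of sign were confined to genes not called in all libraries: Gm4432 (0.94 under limma-voom, 7.08 in range 2), Mzb1 (0.062), Saa3 (-0.23) and Npy (-0.45) under limma-voom, Saa3 (-0.24) and Npy (-0.56) in range 1, Cxcl1 (0.055), Cd4 (-0.051), Ncr1 (-0.0061), Hopx (0.032) and Scgb1a1 (0.14) in range 2, Hopx (0.016) and Scgb1a1 (0.13) without 4-week library 3 and 15-week library 1, and Mzb1 (0.20), Hopx (0.067) and Scgb1a1 (0.36) with GC and length offsets. No paired analysis was possible because the labels number no replicates across groups. Genes under about 1 CPM in a group, such as Il5 under antibody and Btnl4 at 4 weeks, rest on few reads per library there.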

Other observations

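Some genes outside the lists also had groups that did not overlap, and the following were named after their values were seen. The first 6 were above every 4-week library in all 15 antibody libraries. They were picked from the 65 of 15598 genes tested (0.417%) with that pattern. Siglec1, a sialic acid receptor of macrophages, had 36.99, 62.01 and 132 CPM under antibody, against 6.61, 17.9 and 29.9 CPM at 4 weeks, Axl, an efferocytosis receptor, 205, 280.1 and 473 CPM under antibody, against 102, 127 and 170.1 CPM at 4 weeks, and Mpeg1, perforin-2, 619.7, 994 and 2093 CPM under antibody, against 332, 409 and 494 CPM at 4 weeks. Tlr2, a receptor for bacterial lipoproteins, rose by 1.37 ± 0.13 on the log2 scale. Fpr1, the formyl peptide receptor, had 8.704, 13.5 and 21.3 CPM under antibody, against 0.603, 1.49 and 4.47 CPM at 4 weeks, and Kcnn3, a potassium channel, 19.6, 41.3 and 109 CPM under antibody, against 2.53, 6.53 and 13.7 CPM at 4 weeks.

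In the other direction, Chia1, acidic chitinase, had 55.4, 86.5 and 209.5 CPM under antibody, against 318, 1086 and 2387 CPM at 4 weeks, and Col6a5, a collagen VI chain, 3.83, 15.9 and 28.4 CPM under antibody, against 62.8, 111 and 202 CPM at 4 weeks. Cish and Socs1, feedback inhibitors of cytokine signalling through STAT proteins, had 20.9, 29.6 and 40.1 CPM and 2.71, 4.39 and 6.85 CPM under antibody, against 50.1, 61.96 and 87.3 CPM and 9.16, 11.9 and 22.6 CPM at 4 weeks. Klrg1, a receptor of activated lymphocytes, had 1.05, 2.34 and 3.28 CPM under antibody, against 4.09, 6.12 and 15.8 CPM at 4 weeks, and Gata1, a factor of eosinophil, mast cell and erythroid lineages, 0, 0.529 and 1.15 CPM under antibody, against 2.499, 3.88 and 6.89 CPM at 4 weeks.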
